A study of Mus musculus with 16 samples.

Results

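The genes described here were 49 ligands and receptors of axon guidance. They were chosen by name, with earlier results of these data known. The list holds netrins with Dcc and the Unc5 receptors, Slits with the Robo receptors, semaphorins with plexins and neuropilins, and ephrins with the Eph receptors. A consensus H3K27me3 peak belonged to a gene when it overlapped the gene's span in the build mm10 with 2 kb on either side, and the counts of a gene's peaks were summed. On this rule 47 of the 49 genes held at least 1 peak, out of 20257 genes with a peak in the whole series, and Epha2 and Ephb4 held none. H3K27me3 had been profiled in the series with ChIP-seq, on mouse embryonic stem cells (mESC) grown on gelatin with serum, LIF and the inhibitors PD0325901 and CHIR99021. There were 4 lines, each sampled at 0 and 48 h of doxycycline: WT cells (WT control), WT cells with a doxycycline-inducible transgene for the long non-coding RNA Firre (WT transgene), cells with the Firre KO genotype (labelled KO control) and KO cells with that transgene (KO transgene). Every line, the controls included, received doxycycline, and each of the 8 conditions had 1 H3K27me3 library and 1 input library. No label says how many clones stand behind a line.

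H3K27me3 is the trimethylation of lysine on histone H3 that Polycomb repressive complex 2 places over silenced developmental genes, often at CpG-rich start sites. Guidance cues steer growing axons and migrating cells: a secreted or membrane-bound ligand binds a receptor on the growth cone, and the receptor attracts or repels. Netrins act through Dcc and the Unc5 receptors, Slits through Robo receptors, class 3 semaphorins through neuropilins and A-type plexins, and ephrins through Eph receptor tyrosine kinases. Many of these genes are silent in embryonic stem cells and are switched on in neurons and in other embryonic tissues. RNA was not measured in these libraries, so no statement on expression follows from the values below.

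Depth over all consensus peaks was 10380781 to 14787938 counts for H3K27me3 and 3340654 to 6244333 for input. The 0 h and 48 h libraries of a line were apart by little more than counting noise (chi-square over its degrees of freedom of 1.04 to 1.12 for H3K27me3 and 1.00 to 1.01 for input). With 1 library per condition, p-values measure only the spread between these libraries, which may be technical. The Firre peak went against 1 label: in input it had 0.694 times the mean of the X chromosome in the WT control line (exact 95% Poisson interval 0.317 to 1.32), but 11.1 times in the line labelled KO control (9.11 to 13.4), beside 14.9 in the WT transgene and 10.7 in the KO transgene line. Counts on chromosome 11, relative to all others, were 1.37 times the WT level in the line labelled KO control, in H3K27me3 and in input alike, and 1.21 times (H3K27me3) and 1.22 times (input) in the KO transgene line. Levels below were therefore scaled to counts outside chromosome 11, and the members on it are shown apart. Of 12 pluripotency genes fixed as markers, 2 held a peak (Esrrb and Dppa3), against 5 of 5 primitive endoderm, 4 of 4 trophoblast and 5 of 6 fibroblast markers. Summed counts from bulk chromatin cannot tell apart a mark on more cells from more mark per cell.

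The promoters of the genes at both ends of the range of H3K27me3 over input are printed for reference, the first 2 with the highest and the last 2 with the lowest values among members the RefSeq table holds (GRCm38.p6, the mm10 build). Each runs from 250 bases before to 50 bases after an annotated start, 5′ to 3′ on the gene's strand, and capitals mark every CG. Where a gene had several starts, the one with the most CG is shown.
Efna3 (chr3:89321719-89322018, minus strand): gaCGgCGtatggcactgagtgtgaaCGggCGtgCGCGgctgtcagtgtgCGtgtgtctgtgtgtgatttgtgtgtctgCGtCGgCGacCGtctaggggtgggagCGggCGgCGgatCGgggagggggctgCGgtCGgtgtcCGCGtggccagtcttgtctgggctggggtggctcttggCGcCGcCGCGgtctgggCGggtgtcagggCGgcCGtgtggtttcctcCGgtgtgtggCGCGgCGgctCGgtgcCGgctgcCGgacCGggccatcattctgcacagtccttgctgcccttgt
Epha8 (chr4:136956767-136957066, minus strand): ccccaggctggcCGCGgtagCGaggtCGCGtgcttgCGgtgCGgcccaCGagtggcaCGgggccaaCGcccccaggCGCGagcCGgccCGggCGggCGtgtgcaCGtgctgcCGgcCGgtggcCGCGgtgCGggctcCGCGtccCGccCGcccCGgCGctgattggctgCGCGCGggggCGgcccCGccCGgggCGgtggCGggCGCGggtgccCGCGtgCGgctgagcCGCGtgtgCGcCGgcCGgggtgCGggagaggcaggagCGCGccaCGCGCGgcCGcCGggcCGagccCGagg
Sema5a (chr15:32244563-32244862, plus strand): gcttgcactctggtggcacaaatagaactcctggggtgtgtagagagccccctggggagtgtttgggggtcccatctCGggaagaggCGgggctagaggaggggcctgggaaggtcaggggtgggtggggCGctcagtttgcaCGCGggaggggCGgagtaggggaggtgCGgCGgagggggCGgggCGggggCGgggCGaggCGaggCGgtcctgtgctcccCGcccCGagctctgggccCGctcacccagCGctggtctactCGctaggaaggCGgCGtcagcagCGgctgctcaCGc
Epha4 (chr1:77515039-77515338, minus strand): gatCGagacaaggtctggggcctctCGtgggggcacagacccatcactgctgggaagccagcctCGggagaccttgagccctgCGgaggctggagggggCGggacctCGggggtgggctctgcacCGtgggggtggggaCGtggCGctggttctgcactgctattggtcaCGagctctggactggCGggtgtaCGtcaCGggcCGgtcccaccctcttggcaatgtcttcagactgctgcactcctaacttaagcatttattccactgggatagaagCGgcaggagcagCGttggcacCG
The Efna3 promoter held 34 CG and 7.73% of the 32851 promoters of the table held as many or more, and the Epha8 promoter held 56 (0.195%). Sema5a held 23 (21.5%) and Epha4 held 17 (31.4%). All 4 thus lay above the median of 7 CG over the table, whose starts belong to coding and non-coding genes alike. Among the 37 members with a peak and a promoter in the table, each taken at its start with the most CG, the median was 24 CG. Of these, 36 of 37 were above the table's median, which 48.65% of all promoters exceeded. The table's values count every start singly, which is an unlike measure. Further starts of Robo2, Sema6b and Sema6d held 5, 6 and 6 CG. Across 36 genes the CG count and the ratio over input of the start-site peaks had Pearson's r of 0.27 and Spearman's rho of 0.21, as a description over genes that share the same libraries.

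Members carried from 1 to 54 peaks (median 6), 582 in all. The level of the mark was taken as the ratio of H3K27me3 to input counts, each in CPM (counts scaled to the same library total, taken outside chromosome 11), in each of the 8 conditions. A ratio of 1 is the mean over the consensus peaks, so a value below 1 means less signal than in the average called peak and not that the mark was missing. All 8 ratios lay above 1 in 17 members, below 1 in 6, and on both sides of it in 24. The same split was not counted over all gene regions, so these counts have no share to be read against. The median over the members was 1.05 ± 0.032 (SD over 8 conditions), against 0.977 ± 0.0051 over 17099 gene regions. In the edgeR fit of H3K27me3 against input, with the condition as block, 23 of 47 members were above input and 11 below at an adjusted p under 0.05, while 28.7% and 37.5% of all gene regions were. This fit was scaled by total counts over the consensus peaks. Above and below input, here and in later paragraphs, thus mean above and below the average called peak, and not presence or absence of the mark. The median log2 difference was 0.07 over the members and -0.07 over all regions. Long genes with many counts pass such a test more easily, and the part of region size in these counts was not tested.

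Efna3 and Epha8 had the highest median ratios of the members. Efna3, a GPI-anchored ephrin on chromosome 3 (chr3:89313899-89322939), had 1 peak of 4.96 kb at its start, and its ratio ran from 1.77 to 2.37 with a median of 2.06. Its log2 difference from input was 1.07 ± 0.06 (SE), the largest of the 47. No other member reached a ratio of 2 in any condition. Epha8, an Eph receptor kinase on chromosome 4 (chr4:136929419-136956859), lay whole inside a peak of 77.4 kb that also reached Zbtb40, with ratios from 1.58 to 1.84 and a median of 1.74. The lowest of its 8 ratios came from the WT control line at 0 h and the highest from the line labelled KO control at 0 h. Epha10, an Eph receptor without kinase activity, had ratios from 1.31 to 1.56 (median 1.49), and Efna2, another GPI-anchored ephrin, from 1.18 to 1.76 (median 1.53). The range of Efna2 overlapped those of Epha8 and Epha10, so its place among them is not resolved, while the lowest Epha8 value lay above the highest of Epha10.

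Several others of the 12 highest members sat in domains wider than the gene. Unc5a, a netrin receptor that mediates repulsion (gene span chr13:54945151-55006018, chromosome 13), was covered by a single peak of 87.3 kb that also reached Hk3. Its ratios ran from 1.28 to 1.60 (median 1.44). Robo3, a receptor of commissural axons at the midline, shared a peak of 42.7 kb with its neighbour Robo4, and its ratios ran from 1.29 to 1.57 (median 1.42). Epha1 shared a peak of 71.9 kb with Zyx, Tas2r135 and Tas2r143, with ratios from 1.201 to 1.501 (median 1.35). In such shared peaks the value belongs to the domain and cannot be given to 1 gene. Peaks of Epha10 (Maneal), Sema6b (Lrg1, Plin5 and Tnfaip8l1), Sema3f (Gnat1) and Sema3b (Ifrd2 and Lsmem2) overlapped other coding genes as well. Sema6b, a membrane-bound semaphorin, had ratios from 1.35 to 1.63 (median 1.53). Epha7 had ratios from 1.11 to 1.49 (median 1.36) over 5.53 kb of peaks, where the shallowest input library gave 44 counts. The secreted semaphorins Sema3d, Sema3f and Sema3b closed the group, with medians of 1.24, 1.22 and 1.19. Sema3b varied most of the 3, from 0.911 to 1.43, and its highest ratios were in the KO lines.

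**Figure D1:**
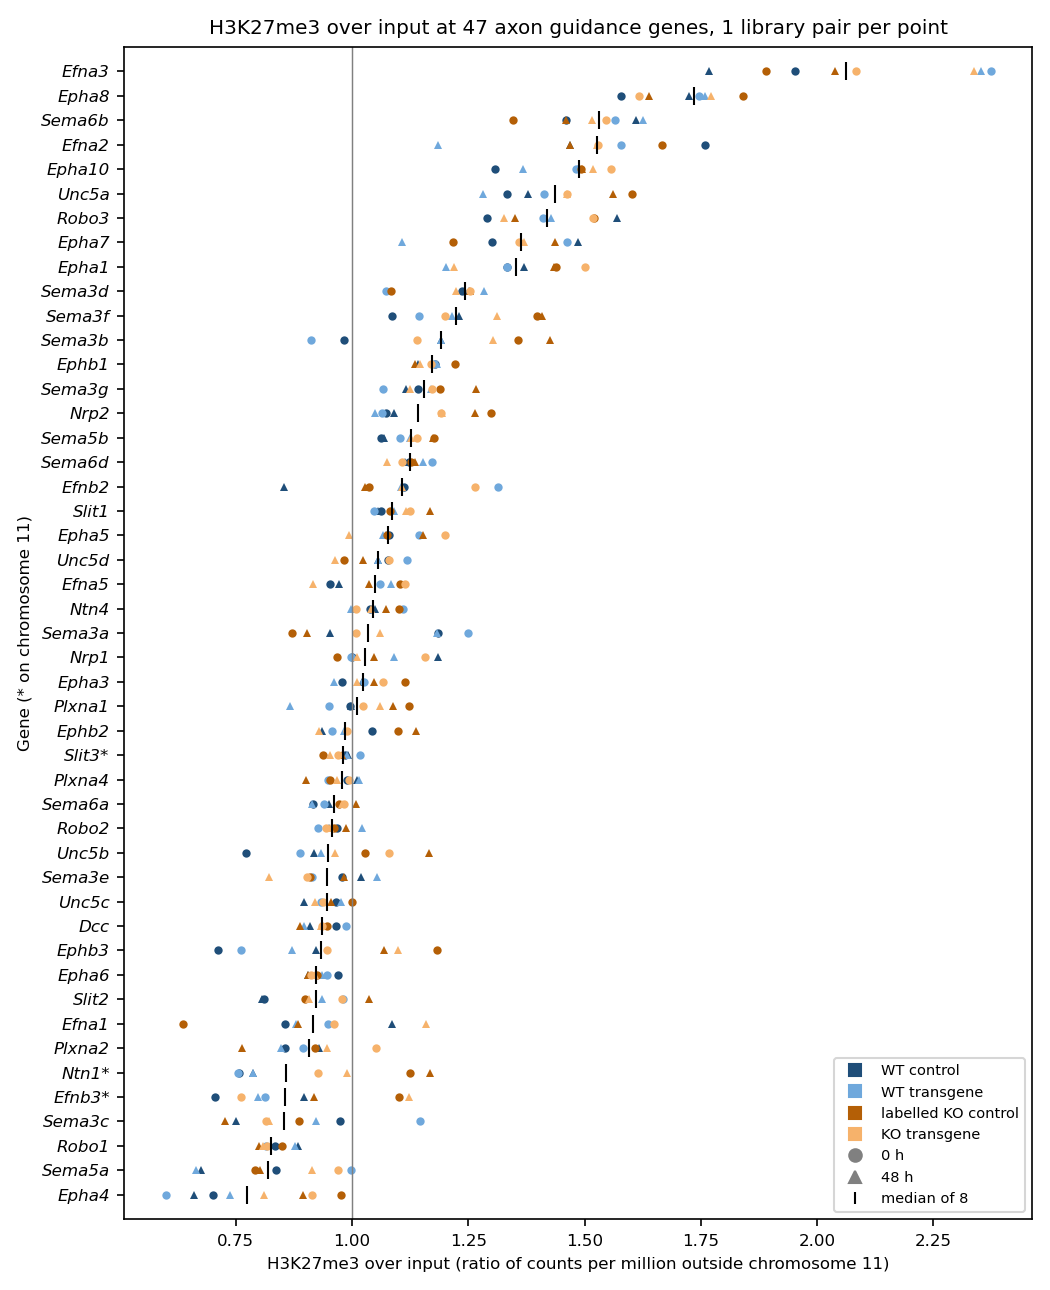
H3K27me3 over input (x axis, ratio of CPM outside chromosome 11) for the 47 members with a peak (y axis, ordered by median), with 1 point per condition, coloured by line and shaped by time. Efna3 lies apart at the top with a median of 2.06, and the Ntn1 points of the WT lines (0.755 to 0.787) lie left of those of the KO lines (0.927 to 1.17).

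By family, ligands and receptors stood side by side. Over all gene regions 28.7% were above input and 37.5% below, and the counts of these small groups were not tested against those shares. Of 12 semaphorins, 7 were above input and 2 below, and of their 5 receptors (neuropilins and A-type plexins) 2 were above and 1 below. Of the 11 Eph receptors with a peak 6 were above and 2 below, and of the 6 ephrins 3 and 1. Of the 2 netrins Ntn4 was above and Ntn1 below, and of the 5 netrin receptors Unc5a and Unc5d were above while Dcc and Unc5c were below. Among Slits and Robos, Slit1 and Robo3 were above and Slit2 and Robo1 below. The median ratio of the 8 conditions was 1.12 ± 0.035 (SD) for the ephrin family and 1.07 ± 0.032 for the semaphorin family, against 0.990 ± 0.047 for the netrin and 0.979 ± 0.023 for the Slit family. These families hold 17, 17, 7 and 6 genes with a peak, and single members spread far more than the medians.

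The 5 lowest members were Epha4, Sema5a, Robo1, Sema3c and Efnb3. Epha4, a receptor for A- and B-type ephrins (chr1:77367182-77515107, chromosome 1), had ratios of 0.599 to 0.977 with a median of 0.774, and its log2 difference from input was -0.37 ± 0.06. Its ratios were 0.701 and 0.660 in the WT control, 0.599 and 0.737 in the WT transgene, 0.977 and 0.895 in the labelled KO control and 0.913 and 0.810 in the KO transgene line (0 and 48 h), so those of the KO and WT lines did not overlap. Sema5a, a transmembrane semaphorin, ranged from 0.663 to 0.998 (median 0.820) over 5.82 kb of peaks. Robo1, a Slit receptor of 1020 kb, varied least of these genes, from 0.799 to 0.884 (median 0.825) over 34 peaks. Sema3c ranged from 0.727 to 1.15 (median 0.854), with as few as 51 input counts in a library. Efnb3, a transmembrane ephrin on chromosome 11, ranged from 0.705 to 1.12 (median 0.855) in a peak it shares with Wrap53. The members between these groups had medians from 0.857 (Ntn1) to 1.17 (Ephb1).

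Within most of these genes the mark was higher at the start site than elsewhere. Of 37 members with a peak and an annotated start, 36 had a peak within 2 kb of a start. In the 29 genes with peaks both near and away from the start, the start-site peaks had the higher ratio over input in 25, and the median ratio was 1.23 at starts against 0.885 elsewhere. Efnb2, a transmembrane ephrin, had 1.61 at its start and 0.958 in its 2 other peaks. Nrp1, the neuropilin for Sema3a, had 1.45 against 0.778, and Unc5c had 1.40 against 0.844 over 37 other peaks. A gene could thus hold a marked start and a low sum: Unc5c and Epha6 fell below input as sums while their start-site peaks had ratios of 1.40 and 1.36. The exceptions were Efna2 (1.17 at the start, 1.82 in its second peak), Sema6b (1.49 and 1.59), Robo1 (0.823 and 0.835) and Epha4 (0.746 and 0.799). The promoter table lists 1 start inside Robo1, on the plus strand, and the highest of its 34 peaks (1.37, chr16:72026686-72032309) lay 630840 bp from it, over the 5′ end of the gene span, and was counted among the other peaks. With the 5′ end of each span counted as a start too, which was tried after seeing the data, Robo1 had 0.995 at its starts against 0.791 elsewhere, and start-site peaks were higher in 26 of 29 genes. Peaks at starts and elsewhere differ in width, no test was made of this contrast, and it was not counted over all genes. In the fit against input, the median log2 difference for peaks within 2 kb of starts was 0.35 over the members and -0.02 over all regions. With the gene spans it was 0.07 and -0.07.

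**Figure D2:**
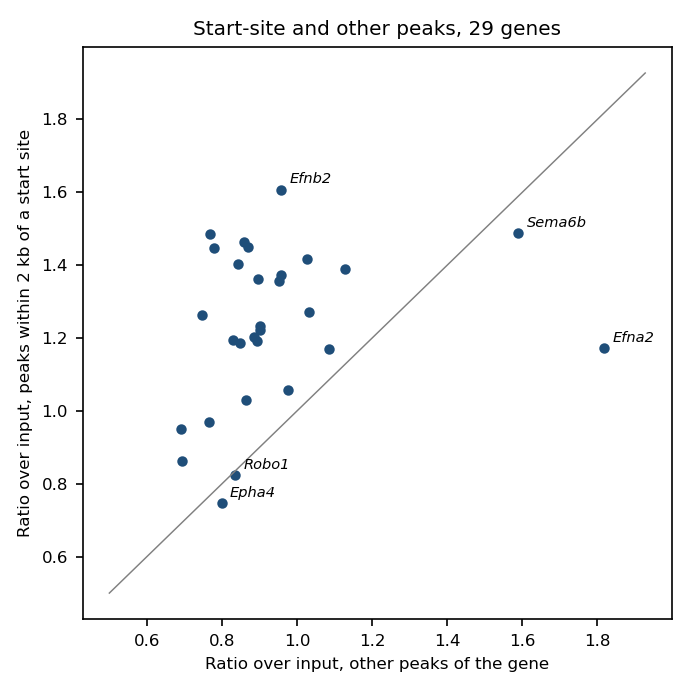
Ratio over input of the peaks within 2 kb of an annotated start (y axis) against that of the gene's other peaks (x axis), both summed over the 8 conditions, for the 29 members with both. Most points lie above the line of equality, and Efna2, Sema6b, Robo1 and Epha4 lie below it.

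The change over 48 h of doxycycline was small in every family. In the edgeR fit of 48 against 0 h with line as block, none of the 47 members passed the threshold (0 higher, 0 lower), where 0.474% of all gene regions were called higher and 1.49% lower. At an unadjusted p under 0.05 there were 12 members and 2457 of all 18362 regions. DESeq2 and limma-voom called 0 members, and 30 and 379 of all regions. The fitted log2 changes ran from -0.27 to 0.08 with a median of -0.02, and 28 of 47 were below 0, as were 49.2% of all gene regions. The smallest adjusted p, 0.0757, belonged to Sema5a with a log2 change of -0.27 ± 0.09. Sema5a had 12.7 CPM at 0 h and 10.3 at 48 h in the WT control line, 11.9 and 9.61 in the WT transgene line, 13.6 and 11.6 in the labelled KO control line, and 13.7 and 11.4 in the KO transgene line. The 48 h value was the lower in all 4 lines, and each line's ratio had a 95% binomial interval that included 1, on 116 to 158 reads per library. Changes below 0 were found in 10 of 11 Eph receptors (-0.17 at Epha7 to 0.02 at Epha8), 4 of 6 ephrins, 8 of 17 semaphorin, 4 of 7 netrin and 2 of 6 Slit family members, and none passed.

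Changes in the same direction in all 4 lines, in CPM, were downward in 11 members and upward in 4, while 10.6% of all gene regions fell below in all 4 lines and 9.57% lay above. The 11 were Dcc, Efnb2, Epha1, Epha3, Epha7, Epha10, Ntn4, Robo3, Sema3c, Sema5a and Unc5d, and the 4 were Efnb3, Ntn1, Sema3g and Sema5b. The WT control and the labelled KO control lines, which carry no transgene by their labels, are part of both sets. For Ntn1 the 4 log2 changes were 0.04, 0.04, 0.03 and 0.03, all close to 0, and for Epha7 -0.12, -0.24, -0.08 and -0.27, in the order WT control, WT transgene, labelled KO control and KO transgene. Restricting the regions to peaks above input gave 1 call among the members, where 284 of all 6817 regions were called in either direction. It was Sema3f at 0.09 ± 0.03 (edgeR, adjusted p = 0.0456), which was not called on all its peaks (0.07 ± 0.03, adjusted p = 0.203).

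**Figure D3:**
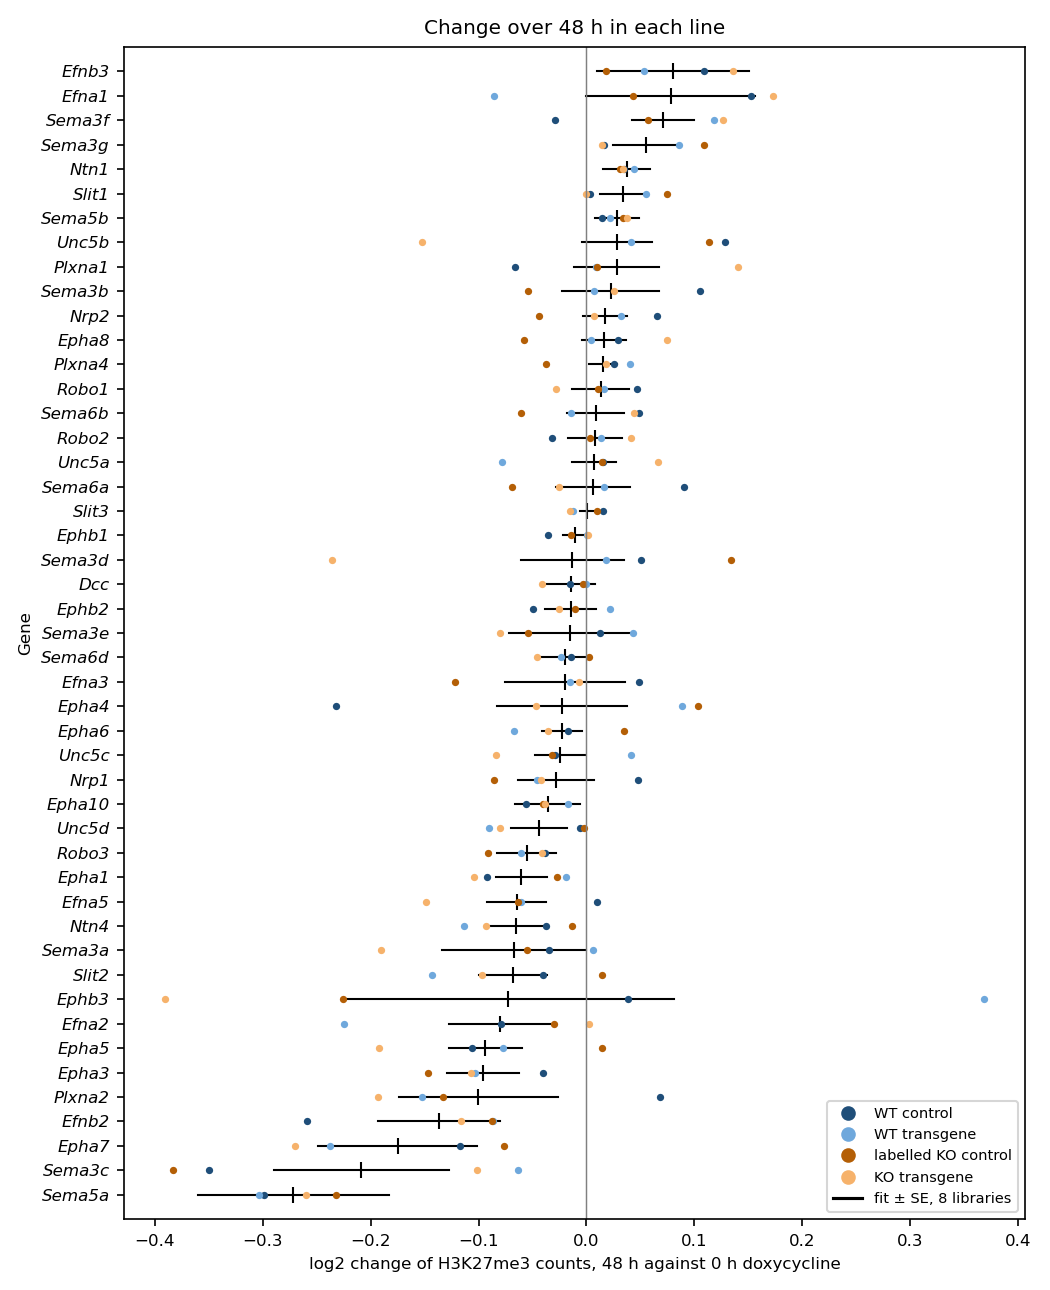
Log2 change of H3K27me3 from 0 to 48 h of doxycycline (x axis) for the 47 members (y axis, ordered by the fitted change); points are the 4 lines, and black bars the fit over 8 libraries ± SE. Sema5a has its 4 lines between -0.30 and -0.23, and the widest spread belongs to Ephb3 with -0.39 to 0.37 on few counts.

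The transgene by time term compared the change over 48 h in the lines labelled with the transgene and in those labelled as controls. It follows the labels, as does every transgene contrast below, although input at the Firre peak of the line labelled KO control was like that of the transgene lines. No member passed it (0 of 47), where 0.049% of all regions did. DESeq2 and limma-voom called 0 members (3 and 9 of all regions). In edgeR, 3 members and 989 of all 18362 regions had an unadjusted p under 0.05. Those 3 were Unc5b (-0.18 ± 0.06, adjusted p = 0.805), Sema3d (-0.20 ± 0.09, 0.884) and Sema3f (0.11 ± 0.06, 0.920). Unc5b, a receptor of Ntn1, changed by 0.13 in the WT control, 0.04 in the WT transgene, 0.11 in the labelled KO control and -0.15 in the KO transgene line, the 1 line of the 4 below 0. The term for a different change in KO and WT lines gave 0 of 47 too, against 0.00545% of all regions, with 0 members (952 of 18362 regions) at an unadjusted p under 0.05 and 0 by DESeq2 and limma-voom. Its lowest value was -0.49 at Ephb3, which had a single peak of 1.51 kb and 13 input counts in the shallowest library.

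More members differed between the KO and the WT lines. In the additive fit with transgene and time, 11 of 47 members were higher in the KO lines, where 9.69% of all gene regions were, and 3 were lower, where 3.55% were. With upper quartile factors these counts were 10 and 5, where 2899 of all 18362 regions were called in either direction. Without a fit, the H3K27me3 CPM values of all 4 KO libraries were above those of all 4 WT libraries at 12 of 47 members (11.5% of all gene regions) and below them at 3 (3.47%). In the additive fit, higher were Ntn1, Efnb3 and Slit3 on chromosome 11, and Epha4, Sema3b, Unc5b, Nrp2, Plxna1, Sema3f, Unc5a and Ephb2 elsewhere. Lower were Unc5d, Plxna4 and Epha6. Off chromosome 11 this made 8 of 44 members higher and 3 lower. A separate fit with chromosome 11 left out called 1069 of all 17046 regions in either direction. Both times of a line entered as separate libraries, so these p-values do not measure the spread between lines, and the line labelled KO control is 1 of the 2 KO lines.

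Off chromosome 11, Unc5b had 77.3, 84.4, 83.5 and 85.9 H3K27me3 CPM in the WT control at 0 and 48 h and the WT transgene at 0 and 48 h, and 94.1, 102, 97.7 and 87.9 in the labelled KO control and KO transgene in the same order. The KO and WT values did not overlap, and the fitted log2 difference was 0.18 ± 0.04 (adjusted p = 0.00286). Its input was 92.0 to 100.0 in the WT and 87.5 to 91.6 in the KO lines, so the ratio over input was 0.773 to 0.934 against 0.964 to 1.17. Nrp2, the neuropilin for Sema3f, had 242, 253, 241 and 247 CPM in the WT and 292, 284, 269 and 271 in the KO lines, again without overlap (0.16 ± 0.03, adjusted p = 6.35e-05). Its ratio over input rose from 1.05 to 1.09 in the WT to 1.19 to 1.30 in the KO lines. Of its 9 peaks, 5 were called higher in the KO lines, while the peak at the start was not (0.08, adjusted p = 0.387).

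Epha4 had 25.02, 21.3, 20.6 and 21.9 CPM in the WT and 28.0, 30.0, 26.97 and 26.1 in the KO lines, which did not overlap (0.31 ± 0.06, adjusted p = 6.71e-04). Unc5a had 251, 254, 256 and 243 against 287, 290, 261 and 273 (0.13 ± 0.03, adjusted p = 0.00226), with the KO transgene at 0 h only just above the highest WT library. Sema3b, a secreted semaphorin, had 42.9, 46.1, 40.7 and 40.9 against 57.1, 55.0, 49.96 and 50.9 (0.30 ± 0.05, adjusted p = 1.01e-05). Sema3f (0.14 ± 0.04), Plxna1 (0.16 ± 0.04) and Ephb2 (0.10 ± 0.03) were higher by less. The Plxna1 peak covers 3.31% of its window and also reaches Chchd6 and Gm40415. Peaks of Unc5a, Sema3b, Sema3f and Ephb2 overlapped other coding genes too, so these values are not theirs alone. Unc5d (-0.14 ± 0.03), Plxna4 (-0.11 ± 0.02) and Epha6 (-0.08 ± 0.03) were lower.

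Against the matching change of input, fewer of these differences were called. In a fit over all 16 libraries, added after the data were seen, the H3K27me3 change exceeded the input change at Ntn1 (0.43 ± 0.04), Epha4 (0.40 ± 0.10), Unc5b (0.27 ± 0.06), Nrp2 (0.20 ± 0.04) and Unc5a (0.16 ± 0.04), 5 of 47 members where 0.703% of all regions were called higher. In input alone, 2 of 47 members were called higher, Ntn1 and Slit3, where 5.52% of all regions were. Sema3b had 0.28 ± 0.09 (adjusted p = 0.0733) and was not called. The ratio over input was higher in all 4 KO conditions than in all 4 WT conditions at 10 of 47 members, against 3.33% of all gene regions: the same 5 genes with Sema5b, Sema6a, Plxna1, Epha10 and Ephb3. It was lower in all 4 at Slit3 alone of the 47, against 2.8% of regions.

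Some calls rested on single libraries or on counting the times separately. With both times of a line summed, 8 members were higher and 1 was lower, where 1737 of all 18362 regions were called in either direction. In that fit Unc5a (0.13 ± 0.05, edgeR, adjusted p = 0.067), Plxna1, Ephb2, Plxna4 and Epha6 were no longer called. Sema3f lost its call without the WT control library at 48 h (0.10). Plxna1 lost it without the 48 h library of the WT control (0.14), WT transgene (0.14) or KO transgene line (0.12). Ephb2 lost it without the WT control library at 0 h (0.09) or 48 h (0.07) or the labelled KO control library at either time (0.08 and 0.08). Epha6 lost it without the WT control library at 0 h (-0.07) or 48 h (-0.07), the labelled KO control library at 0 h (-0.06) or 48 h (-0.08), or the WT transgene library at 0 h (-0.08).

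**Figure D4:**
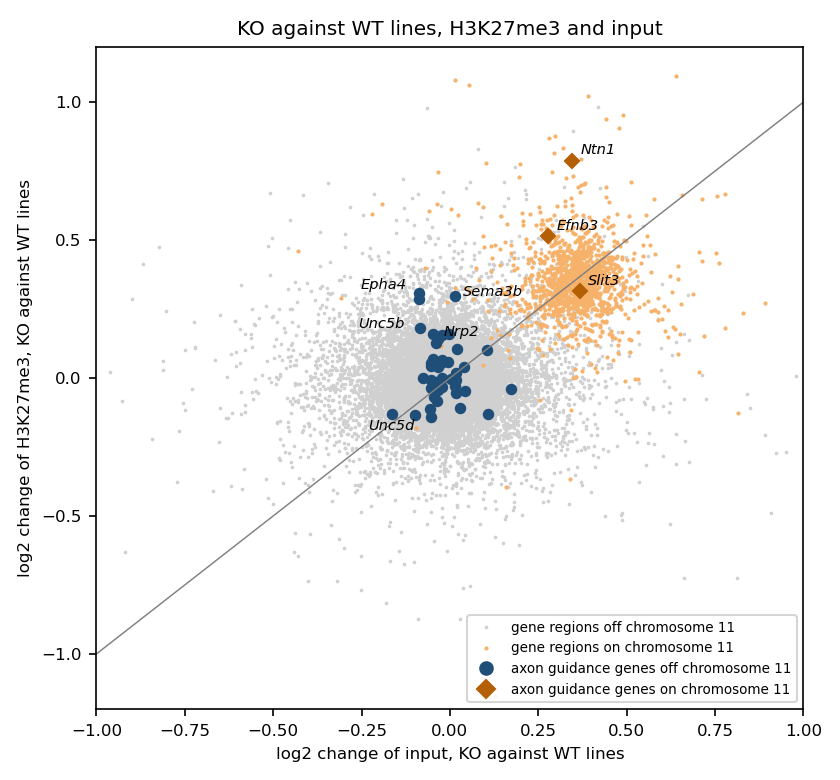
Fitted log2 change of H3K27me3 (y axis) against that of input (x axis), KO against WT lines, for gene regions (small dots; 5 of 18232 lie outside the axes) and the 47 members (large symbols); the line marks equal change. Slit3 lies on the chromosome 11 cloud, Ntn1 lies above it at 0.79 and 0.35, and Epha4, Unc5b and Nrp2 lie above 0 with input near 0.

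The 3 members on chromosome 11 differed from each other. Ntn1, the founding chemoattractant of the netrin family (chr11:68209364-68386826), had 173, 177, 171 and 176 H3K27me3 CPM in the 4 WT libraries, 347 and 355 in the labelled KO control line, and 262 and 268 in the KO transgene line, with the 2 groups far apart. Its input was 229, 225, 227 and 224 in the WT lines, 309 and 304 in the labelled KO control and 283 and 271 in the KO transgene line, also apart. The log2 change between KO and WT lines was 0.79 ± 0.05 in H3K27me3 (adjusted p = 7.41e-13) and 0.35 ± 0.03 in input (adjusted p = 7.05e-16). Over all 1315 gene regions of chromosome 11 the median changes were 0.35 and 0.36, with a median difference of -0.01 and a range from -0.27 to 0.29 between the 5th and 95th percentiles. Ntn1's input thus moved like the chromosome, and its H3K27me3 moved by more. Its ratio over input was 0.755 to 0.787 in the WT lines, 1.12 and 1.17 in the labelled KO control and 0.927 and 0.989 in the KO transgene line. By the difference of both fitted changes it ranked 29 of the 1315 regions.

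The excess over input at Ntn1 was measured on its summed peaks and was not seen around the gene. The fit of single peaks held no input term, and 19 of the 30 Slit3 peaks were called higher in it too. An excess over input was not tested in single peaks. All 18 Ntn1 peaks were called higher in the KO lines, with log2 changes from 0.67 to 1.18, against input changes from 0.11 to 0.85. Of the 582 member peaks 51 were called higher, among them these 18, the 19 of Slit3 and 1 of Efnb3. Over all single peaks 3.8% were called higher, a share taken over all chromosomes and not over chromosome 11 alone. Of the 18 Ntn1 peaks 1 was above input, in the sense of above the average called peak, where 7.76% of all single peaks were. It was the last one, at the higher-coordinate end of the span (chr11:68377294-68393274), with a ratio of 1.47 and a fold of 2.93 in the authors' peak list. In the 52 peaks within 500 kb outside the Ntn1 window, KO over WT counts were 1.22 to 1.33 in H3K27me3 and 1.17 to 1.36 in input over the 4 matched pairs of lines and times. Inside the window they were 1.52 to 2.01 and 1.21 to 1.35. The KO over WT value of the ratio of H3K27me3 to input was therefore 1.23 to 1.49 inside the window and 0.970 to 1.05 around it.

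**Figure D5:**
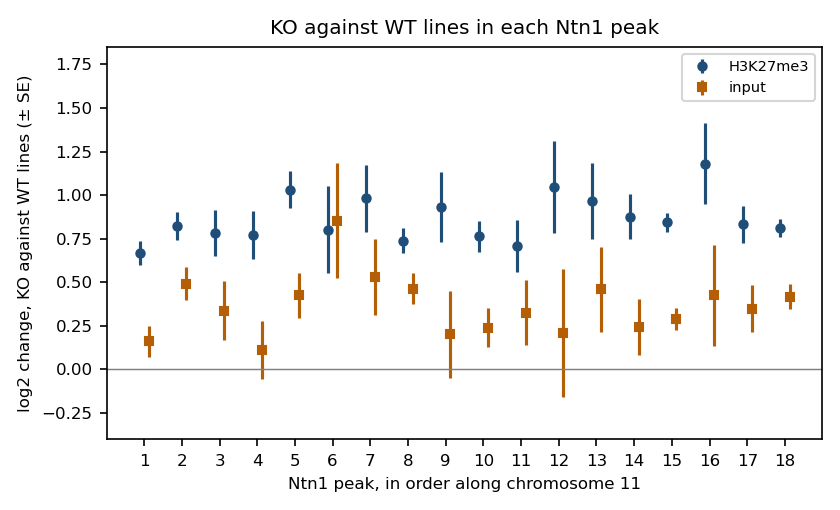
Fitted log2 change between KO and WT lines (y axis, ± SE over 8 libraries) in each of the 18 Ntn1 peaks (x axis, in order along the chromosome), for H3K27me3 and input. H3K27me3 runs from 0.67 to 1.18, and input from 0.11 to 0.85, with 1 narrow peak, the 6th, where both lie close together.

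Slit3, a Slit ligand of 587 kb (chr11:35121456-35708507), had 1153, 1165, 1145 and 1135 H3K27me3 CPM in the WT and 1531, 1541, 1373 and 1359 in the KO lines. Its input moved as far, with 1171, 1177, 1127 and 1149 against 1634, 1575, 1416 and 1428. The log2 changes were 0.31 ± 0.02 in H3K27me3 and 0.37 ± 0.02 in input, and the difference was -0.06 ± 0.02 (edgeR, unadjusted p = 0.0181, adjusted p = 0.270). The ratio over input was slightly lower in the KO lines, 0.937 to 0.979 against 0.984 to 1.02. Efnb3 had 14.6, 15.7, 15.4 and 15.99 CPM in the WT and 24.8, 25.1, 19.0 and 20.9 in the KO lines (0.51 ± 0.08, adjusted p = 5.98e-06). Its input was shallow: it ran from 17.5 to 20.7 in the WT and from 18.6 to 27.4 in the KO lines on 67 to 152 reads, the difference was 0.23 ± 0.12 (adjusted p = 0.452), and the ratios over input overlapped. For Efnb3, a change of H3K27me3 beyond that of input was not detectable at this depth.

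Between transgene and control lines, over both backgrounds and times, 2 of 47 members were lower in the transgene lines, where 1.24% of all regions were, and 0 were higher, where 0.207% were. They were Ntn1 (-0.22 ± 0.05, adjusted p = 0.00966) and Slit3 (-0.09 ± 0.02, adjusted p = 0.0397), and 10 members and 2362 of all 18362 regions had an unadjusted p under 0.05. By the values above, the WT lines with and without the transgene differed little at both genes, and the KO transgene line lay below the line labelled KO control in H3K27me3 and in input. Input of Slit3 was lower too (-0.10 ± 0.02, adjusted p = 0.00224), the 1 member so called where 0.274% of all regions were, and against input neither gene was called (Ntn1 -0.14 ± 0.04, adjusted p = 0.228; Slit3 0.01 ± 0.02, adjusted p = 0.970). DESeq2 called 0 members and 28 of all 18362 regions. Both edgeR calls were lost without the 0 h or the 48 h library of either KO line. Ntn1 then had -0.17 in each case and Slit3 -0.08, -0.08, -0.07 and -0.07. The level of chromosome 11 in input and the transgene cannot be told apart in the KO pair.

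Other guidance genes, listed with earlier results known, gave a frame for these counts. Of 37 further ligands and receptors (such as L1cam, Cxcr4, Sema4 and RGM genes) 29 held a peak. Of these, 20 were above input and 3 below, where 28.7% and 37.5% of all gene regions were, with a median log2 difference of 0.21. The highest were Efnb1 (0.92 ± 0.06), L1cam (0.73 ± 0.11), Sema6c (0.70 ± 0.08) and Cxcr4 (0.53 ± 0.08), 2 of them X-linked. Of 35 intracellular effectors, kinases and cytoskeletal adaptors that act below the receptors, 23 held a peak. Of these, 6 were above input and 9 below, against the same shares of all gene regions, with a median of -0.16. Over time, 1 of the 29 was called higher and 1 of the 23 lower, where 0.474% and 1.49% of all gene regions were. Rgma rose by 0.10 ± 0.03 (edgeR, adjusted p = 0.0371). Trio, an exchange factor in netrin signalling, fell by 0.06 on the log2 scale (SE 0.02, adjusted p = 0.0184). In KO against WT lines 2 of the 29 were called higher and 2 lower, and 2 of the 23 higher and 1 lower. Over all gene regions 9.69% were higher and 3.55% lower. Among the ligands and receptors, Rgma (0.23 ± 0.03) and Boc (0.09 ± 0.03) were higher and Ntn5 (-0.39 ± 0.08) and Sema7a (-0.13 ± 0.04) lower. Of the effectors, Pak1 (0.56 ± 0.14) and Srgap3 (0.11 ± 0.04) were higher and Dpysl5 (-0.13 ± 0.03) lower.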

How the data were processed

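H3K27me3 ChIP and input DNA of mouse embryonic stem cells were sequenced in 16 libraries, grouped by genotype, antibody and time labels. The authors deposited 1 raw read count for each library at each consensus peak. Their peak list gives a score per peak, a fold (ratio) by the peak caller, and −log10 p and q-values, per the file headers; only the fold is quoted. Tools named in the submitters' processing notes, in no stated role, are DESeq2 1.26.0, featureCounts, MACS2 2.2.71 and BWA 0.7.17-r1188, with the build mm10. The libraries behind the peak call are not stated (not given in the sources used here). Strongly called libraries would favour their own regions, and summed peaks hide changes narrower than a peak.

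Peaks were assigned by gene span (RefSeq, GRCm38.p6) with 2 kb on either side, for coding and lncRNA genes, which gave 18362 regions for 20257 genes; genes with the same peaks share 1 region. The table holds no exons, and starts came from the promoter table. Tests were edgeR 4.0.16 quasi-likelihood F tests (R 4.3.3) with TMM factors, fitted and Benjamini-Hochberg adjusted over all regions at 0.05: time beside line, transgene by time and background by time beside line and time, and background and transgene additive with time. The comparison with input was scaled by total counts, with condition as block. Log2 values are ± SE. Alternatives were DESeq2 1.42.0, limma-voom (limma 3.58.1), other scalings, filters, windows, input as offset and each library left out. The scripts were tested on simulated counts. Intervals of ratios and counts are exact 95% intervals for counting error only. Members and further lists were chosen with earlier results of these data known. Named members were the 12 highest and 5 lowest by median ratio over input, all on chromosome 11, and those past a threshold. Peak starts are printed as deposited.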

Additional observations from a re-analysis of the deposited data

Results flagged for a closer look

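Epha7 and Robo3 moved in opposite directions between KO and WT lines in the control and in the transgene pair at both times. At Epha7 the log2 difference was -0.06 at 0 h and -0.02 at 48 h between the labelled KO control and the WT control line, and 0.07 and 0.04 between the transgene lines, so the mean difference was -0.10. At Robo3 the values were 0.14 and 0.08 in the control pair and -0.04 and -0.02 in the transgene pair, a mean difference of 0.14. The difference between the pairs was not tested. Such opposite signs at both times occurred in 12% of all 17099 gene regions and in 2 of the 47 members.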

How the results depend on the processing

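No paired analysis was possible because, for the replicate number as block, every group holds 1 library and every number is 1; the fit over time had the line as block instead, and without it 3 of all regions were called in place of 360, and 0 members as before. The 0 calls for the transgene by time and the time by background terms held under all settings run, including each library left out. The 0 calls for time held except with peaks above input alone (1 member, where 284 of 6817 regions were called). Above input, 21 to 23 members were called when 1 condition was left out, and 9 to 12 below. Calls in either direction over all regions were then 11551 of 18359 to 11887 of 18362. Around start sites alone 3 were below, where 6775 of all 10807 regions were called in either direction. With start sites alone, Epha6 (0.45), Unc5c (0.50) and Slit2 (0.26) had the opposite sign. For KO against WT lines, members called higher and lower were 5 and 0 against the input change and 5 and 0 with matched input as offset. They were 4 and 0 around start sites, 7 and 1 with peaks above input, and 2 and 0 in the input libraries themselves. Over all regions, calls in either direction were 209 of 18360, 162 of 18362, 1196 of 10809, 1066 of 6817 and 1040 of 18232, in this order. Among members, 5 were lower with upper quartile factors and 1 with both times summed (2899 and 1737 of all 18362 regions called in either direction). Leaving out 1 library gave 8 to 11 higher and 2 to 3 lower, where 1784 to 2404 of all 18362 regions were called in either direction. Slit3 turned to -0.056 against the input change and -0.055 with the offset, and Epha6 to 0.0061 in the KO transgene against the WT transgene line at 48 h. For the transgene, members called were 0 against input, 0 with the offset, 0 with DESeq2, 0 without chromosome 11 and 0 around start sites, and 1 with wider windows of 10 kb, 1 with peaks above input, 1 with both times summed, 1 by single peaks and 1 in the input libraries, and 0 to 2 with 1 library left out; Slit3 turned to 0.012 against input, 0.012 with the offset and 0.0031 around start sites. For the transgene over all regions, calls in either direction were 377 of 22234 with the windows of 10 kb and 160 of 6817 with peaks above input. They were 60 of 18362 with both times summed and 55 of 18232 in the input libraries. Without chromosome 11 they were 75 of 17046, around start sites 92 of 10809, and with 1 library left out 22 to 335 of 18362. Against input they were 11 of 18360, and with the offset 7 of 18362. The fit against the input change was chosen after seeing the data. Depth limited the members with few reads, such as Ephb3 with as few as 13 input counts, and 1 library per condition limited every test.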
